A study of Mus musculus with 3 samples.

Results

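The oligoadenylate synthetase (Oas) genes described here were *Oas1a*, *Oas1g*, *Oas2*, *Oas3*, *Oasl1* and *Oasl2*, 6 of the 31253 genes listed in the skin libraries. They were taken by symbol from the count matrices of 2 mouse skin libraries. The control library held skin cells, bead-selected for the leukocyte surface protein CD45, from mice treated with MC903, a vitamin D analogue (calcipotriol) that gives atopic dermatitis-like inflammation. The RHS library held cells selected the same way from mice given RHS as well as MC903, so MC903 was common to both groups, and the labels do not expand RHS; the series title concerns psychological stress. Strain, sex, age and the number of mice behind each library are not given in the sources used here. A further library held nuclei of sympathetic ganglia, described as from mice given RHS and MC903 although the shared protocol names only MC903-challenged mice, and had no partner group. Each group was a single library, so differences between groups had no replicate check, and every interval below covers counting error only. The RHS over control ratios of these libraries helped to choose the 6 genes, so their ratios are a description and not a test.

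Oas proteins are sensors of double-stranded RNA whose genes are switched on by interferons. On binding such RNA the catalytically active members join ATP into 2′-5′-linked oligoadenylates, small signalling molecules of the antiviral response. Type I interferon, of which *Ifnb1* encodes one form, acts through the receptor chains *Ifnar1* and *Ifnar2* and factors that include *Stat2* and *Irf9*, which bind the interferon-stimulated response element (ISRE) upstream of such genes. In skin, these genes are known as part of the antiviral programme of phagocytes, dendritic cells and keratinocytes.

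The 6 genes lay on chromosome 5 in the order *Oasl2*, *Oasl1*, *Oas2*, *Oas3*, *Oas1g* and *Oas1a* in the RefSeq table of GRCm38.p6. That assembly is not the one named in the submitters' processing notes, GRCm39, so it was used here for names, order and sequence only. The 100 bases before a RefSeq start site are shown for the 5 members with a matched promoter, because several members were lower together in RHS in the same classes. All are written 5′ to 3′ on the gene's own strand. Capitals mark matches to the ISRE core as searched on both strands, GAAA and GAAA with any 2 bases between.

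Oas1a, chr5:120907526-120907625, minus strand: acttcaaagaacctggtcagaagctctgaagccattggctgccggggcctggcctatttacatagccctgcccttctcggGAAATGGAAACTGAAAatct
Oas1g, chr5:120887614-120887713, minus strand: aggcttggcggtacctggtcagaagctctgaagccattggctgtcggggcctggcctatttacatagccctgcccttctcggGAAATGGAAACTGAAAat
Oas3, chr5:120777660-120777759, minus strand: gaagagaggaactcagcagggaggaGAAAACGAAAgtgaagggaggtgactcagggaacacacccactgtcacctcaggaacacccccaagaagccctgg
Oasl1, chr5:114923140-114923239, plus strand: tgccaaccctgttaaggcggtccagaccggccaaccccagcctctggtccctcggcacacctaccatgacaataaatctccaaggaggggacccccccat
Oasl2, chr5:114896834-114896933, plus strand: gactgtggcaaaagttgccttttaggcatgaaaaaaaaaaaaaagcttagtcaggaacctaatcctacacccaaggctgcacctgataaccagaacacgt

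*Oas1a* and *Oas1g* each held 2 overlapping matches, GAAATGGAAA and GAAACTGAAA, at -20 to -11 and -14 to -5 from the start site in *Oas1a*, and at -18 to -9 and -12 to -3 in *Oas1g*. *Oas3* held 1 match, GAAAACGAAA, at -75 to -66. In the full windows of 250 bases before to 50 after the start site, *Oasl1* and *Oasl2* had no match to these letters. An ISRE match was present in 3.44% of all 32851 mouse promoter windows of this length. *Oas1a* also held a match to TTCNNNGAA, the letters of the interferon gamma-activated site, which 8.30% of windows held. The longest coding sequences of *Oas1a* and *Oas1g* were both 1104 bases long and identical at 96.7% of positions, and 96.5% of 283 aligned bases at the 3′ ends of their transcripts were identical. Reads of this pair could be divided between them in ways that depend on the counting, so the split between *Oas1a* and *Oas1g* is uncertain.

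The control library held 12979 barcodes and 55200785 unique molecular identifiers (UMIs, each marking 1 captured RNA molecule), and the RHS library 13339 barcodes and 52762575 UMIs. After filtering, 12577 and 12953 cells remained, with medians of 3233 and 3101 UMIs. The libraries shared 5 barcodes. Clustering without the 6 genes gave 24 classes with at least 50 cells in each library. Classes that were not immune cells remained after the CD45 selection, among them keratinocyte-like cells (9.49% of control and 3.74% of RHS cells). Levels are given as CPM, the UMIs of a gene scaled by all UMIs of the class, and are not corrected for gene length. A gene was counted as lower or higher where it had at least 20 UMIs in the library with more and its CPM differed at least 1.5-fold.

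Over all skin cells, 2 of the 6 members were lower in RHS and none was higher, against 16.1% of all genes lower and 3.46% higher. *Oas1a*, a catalytically active synthetase, had 867 control and 351 RHS UMIs (16.2 and 6.81 CPM), for an RHS over control ratio of 0.421 (95% interval 0.371 to 0.477). *Oas1g*, its near-identical neighbour, had 136 and 50 UMIs and a ratio of 0.382 (0.271 to 0.532). These 2 were the members past the fold, and their intervals lay far from 1.

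The remaining members differed less over all cells. *Oas2*, a larger synthetase with repeated core domains, had 211 and 190 UMIs and a ratio of 0.936 (0.765 to 1.14), so no difference was detectable at this depth. *Oas3*, the largest synthetase, had 336 and 244 UMIs and a ratio of 0.755 (0.637 to 0.892). *Oasl2*, a synthetase that ends in ubiquitin-like domains, had 1218 and 1030 UMIs and a ratio of 0.879 (0.808 to 0.955). *Oasl1*, a ubiquitin-like family member without synthetase activity that is known to limit translation of *Irf7*, was the exception in direction: 12016 control UMIs (224 CPM) and 13063 RHS UMIs (253 CPM) gave a ratio of 1.13 (1.10 to 1.16). Because *Oasl1* gave most of the UMIs of the family, the sum of the 6 followed it, at 14784 and 14928 UMIs.

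The cell mix differed between the libraries in the class with most *Oasl1*. Macrophage-like cells were 921 of the control cells (7.32%) and 1873 of the RHS cells (14.5%). With every class given the same share in both libraries, all 6 ratios were under 1: 0.301 for *Oas1a*, 0.286 for *Oas1g*, 0.596 for *Oas2*, 0.541 for *Oas3*, 0.694 for *Oasl1* and 0.672 for *Oasl2*. Without the macrophage-like cells the *Oasl1* ratio was 1.01 (0.966 to 1.05). The direction of *Oasl1* over all cells was therefore opposite to its direction at an equal cell mix.

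**Figure D1:**
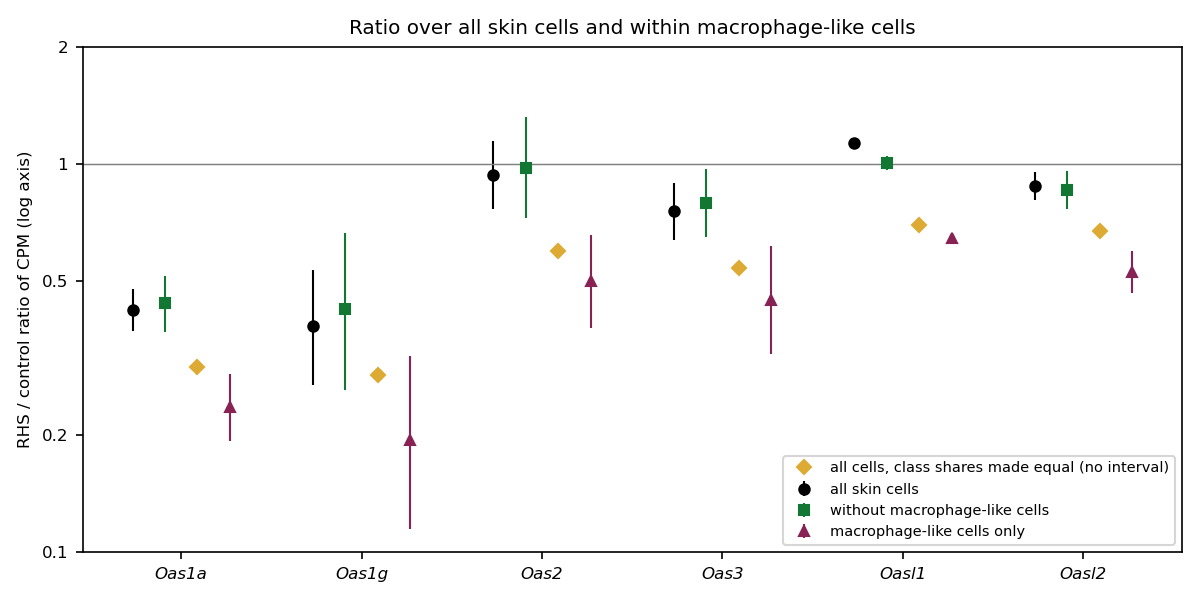
RHS over control ratio of CPM (log axis) for the 6 Oas genes over all skin cells, without macrophage-like cells, at equal class shares and within macrophage-like cells, with 95% intervals where counts give one. *Oasl1* was at 1.13 over all cells, 0.694 at equal class shares and 0.645 within macrophage-like cells.

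Macrophage-like cells had a lower level of every member in the RHS library: 6 of 6 were past the fold, against 6.10% of all genes lower in this class. They also held 59.0% of the control and 67.6% of the RHS UMIs of *Oasl1*. The macrophage markers, from which the class was named, were detected in both libraries and summed to 9562 control and 10613 RHS CPM over all 11. Single markers differed in direction. The complement genes *C1qb* and *C1qa* were at 2383 and 2379 CPM and at 79.8 and 73.6 CPM. *Mrc1* was at 916 and 1170 CPM and *Adgre1* at 601 and 691 CPM. Median depth was 5580 and 5344 UMIs per cell.

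*Oas1a* had 328 UMIs in control and 150 in RHS macrophage-like cells, or 60.0 and 14.2 CPM, a ratio of 0.237 (0.194 to 0.288). For *Oas1g* the counts were 61 and 23, or 11.2 and 2.18 CPM, a ratio of 0.195 (0.115 to 0.320). The intervals of these 2 genes lay under those of the other 4 members, whose ratios were between 0.447 and 0.645. *Oas3* went from 16.1 to 7.20 CPM (88 and 76 UMIs), a ratio of 0.447 (0.324 to 0.614). *Oas2* went from 19.9 to 9.94 CPM (109 and 105 UMIs), a ratio of 0.498 (0.378 to 0.658).

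The ubiquitin-like members followed the same direction with smaller differences. *Oasl2* had 486 and 495 UMIs, or 88.9 and 46.9 CPM, and a ratio of 0.527 (0.464 to 0.599). *Oasl1* had 7087 and 8834 UMIs, or 1297 and 836 CPM, and a ratio of 0.645 (0.625 to 0.666). That was just past the fold; the ratio was 0.671 with doublets kept and 0.697 with the members allowed in the clustering, both short of it. RHS macrophage-like cells thus held more *Oasl1* UMIs in all at a lower level, with more cells in the class.

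The lower *Oas1a* and *Oasl1* levels were not confined to 1 macrophage cluster. In the largest, led by *Pf4*, *Il10*, *Rsad2* and *Ifit1* (762 control and 1552 RHS cells), the *Oas1a* ratio was 0.246 and the *Oasl1* ratio 0.636. A cluster led by *Mmp12*, *Gpnmb* and *Trem2* (142 and 265 cells) had ratios of 0.208 and 0.607. The other members had few UMIs in that cluster, and each of their ratio intervals included 1. Their counts were 7 and 4 for *Oas1g*, 2 and 1 for *Oas2*, 8 and 4 for *Oas3*, and 24 and 29 for *Oasl2*. For these members a lower level outside the largest cluster was therefore not shown there. In the smallest, led by *Cd209f* and *Cd163* (17 and 56 cells), the *Oasl1* ratio was 0.541, and *Oas1a* had only 8 and 2 UMIs. The *Oasl1* level still differed between the clusters, at 1529, 430 and 2995 CPM in control cells and 972, 261 and 1621 CPM in RHS cells. *Oasl1* was among the 10 leading genes of the first cluster. No Oas member had entered the clustering, but other interferon-induced genes were not kept out of it.

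Markers of other cell types were also read in the macrophage-like cells. The 8 monocyte markers, all detected in both libraries, summed to 1918 control and 2195 RHS CPM, while the monocyte gene *Ly6c2* alone was at 110 and 36.1 CPM. The neutrophil markers, 6 and 7 of 8 detected, summed to 73.2 and 66.6 CPM. Their part in the Oas ratios was not tested.

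**Figure D2:**
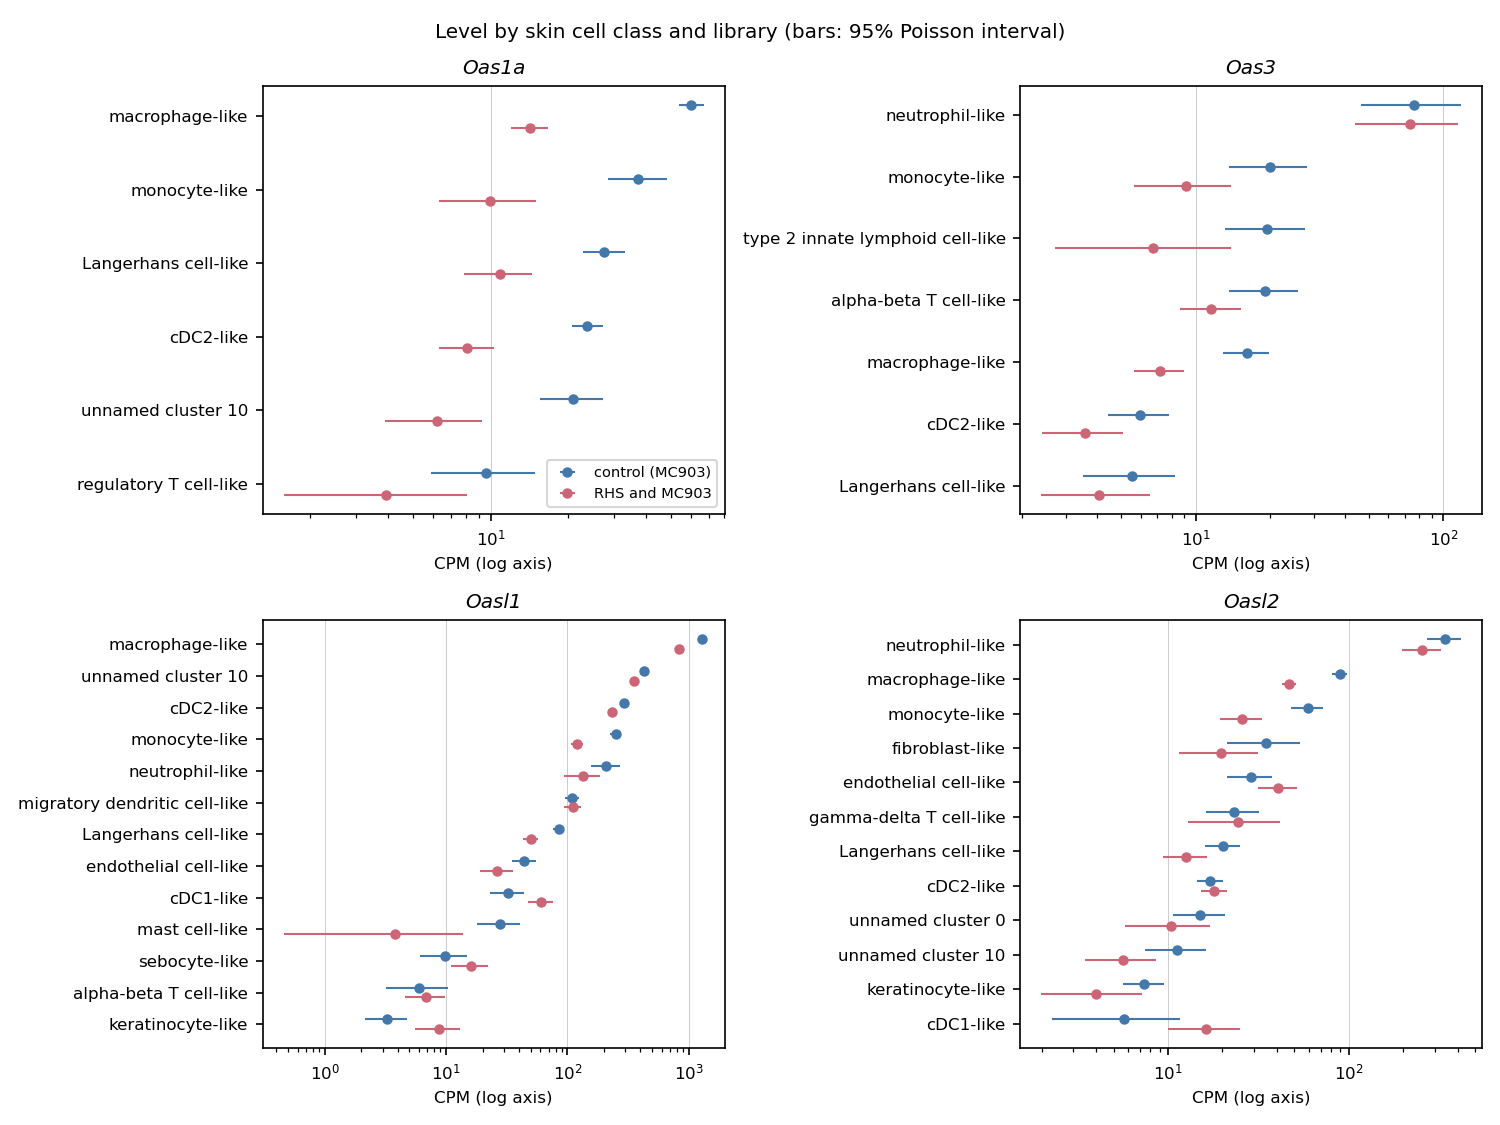
Level in CPM (log axes, 95% Poisson intervals) of *Oas1a*, *Oas3*, *Oasl1* and *Oasl2* in the control and RHS libraries, for each class in which the gene had at least 20 UMIs in the library with more. *Oasl1* was highest in macrophage-like cells in both libraries, and *Oas3* and *Oasl2* were highest in neutrophil-like cells.

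The members differed in which class had the highest level. *Oasl1* was highest in macrophage-like cells in both libraries, above unnamed cluster 10 (430 and 355 CPM; led by *Lyz1*, *Fcrls*, *Retnla* and *Ear2*) and cDC2-like cells (291 and 232 CPM), with no overlap of neighbouring intervals down to that point. *Oas1a* was also highest in macrophage-like cells. In the control library its interval did not overlap that of the next class, monocyte-like cells at 37.4 CPM, whereas in the RHS library it overlapped that of Langerhans cell-like cells at 10.8 CPM.

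Neutrophil-like cells headed the order for *Oas3* and *Oasl2*. *Oas3* stood at 76.3 CPM there in control (20 UMIs) and 73.1 CPM in RHS (19 UMIs), and the next class was at 19.9 and 11.6 CPM with no overlap. The neutrophil ratio of *Oas3* was 0.959 (0.484 to 1.89). *Oasl2* stood there at 339 and 254 CPM (89 and 66 UMIs), a ratio of 0.749 (0.536 to 1.04), again with no overlap with the next class. For *Oas2* the neutrophil level was nominally highest, but rested on 8 and 4 UMIs and overlapped macrophage-like cells. *Oasl1* had 55 and 35 UMIs in these cells (210 and 135 CPM; ratio 0.642, 0.408 to 0.999), where 16.6% of all genes were lower. The neutrophil-like cells were few and shallow, 186 and 175 cells with medians of 1279 and 1187 UMIs, and the top 1% of control cells held 49.1% of their *Oasl1* UMIs.

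Monocyte-like cells, 366 control and 530 RHS cells, had 5 members with enough UMIs. Their defining genes differed in direction, with *Ly6c2* at 685 and 890 CPM and *Plac8* at 1534 and 1072 CPM. Alpha-beta T cell markers summed to 24.3 and 67.7 CPM in this class, with 6 and 8 of 8 detected, and their part in the ratios was not tested. Of the 5 measured Oas members, 4 were lower in RHS, against 6.54% of all genes in the class. *Oas1a* had 60 and 23 UMIs (37.4 and 9.98 CPM; ratio 0.267, 0.158 to 0.439) and *Oasl1* 402 and 277 (250 and 120 CPM; ratio 0.480, 0.411 to 0.561). *Oasl2* stood at 59.2 and 25.6 CPM (ratio 0.433, 0.307 to 0.605) and *Oas3* at 19.9 and 9.11 CPM (ratio 0.457, 0.251 to 0.818). *Oas2*, with 19 and 21 UMIs, had a ratio of 0.770 (0.394 to 1.52). With cells thinned to 1000 UMIs the ratios were 0.904 for *Oasl2*, short of the fold, 0.173 for *Oas3* and 0.403 for *Oas1a*. At Leiden resolution 0.5 they were 0.270 for *Oas3* and 0.427 for *Oas1a*.

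Langerhans cell-like cells, the epidermal antigen-presenting cells, had 4 of 5 measured members lower, against 7.54% of all genes. Their *Oas1a* counts were 115 and 45 (ratio 0.393, 0.272 to 0.559) and their *Oasl1* counts 353 and 207 (ratio 0.588, 0.493 to 0.700). *Oas1g* had 22 and 5 UMIs (ratio 0.228), *Oasl2* 84 and 52 (ratio 0.621), and *Oas3* 23 and 17 (ratio 0.741, 0.372 to 1.45). With at least 500 genes per cell the ratios in the class of this name were 1.09 for *Oasl1* and 0.870 for *Oasl2*, and with separate clustering *Oasl2* was at 0.902.

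In cDC2-like cells 4 of 6 members were lower, against 6.83% of all genes: *Oas1a* (207 and 68 UMIs, ratio 0.342), *Oas1g* (32 and 12, ratio 0.390), *Oas2* (40 and 21, ratio 0.546) and *Oas3* (52 and 30, ratio 0.600). *Oasl1* had 2539 and 1949 UMIs and a ratio of 0.799 (0.752 to 0.847), short of the fold. *Oasl2* had 150 and 151 UMIs and a ratio of 1.05 (0.830 to 1.32). With doublets kept the *Oas3* ratio in this class was 1.14, and with the members allowed in the clustering it was 0.995. The class pooled 2 clusters that differed: cluster 5 had an *Oas3* ratio of 1.13 (0.591 to 2.16) and an *Oasl1* ratio of 0.624 (0.554 to 0.703), while cluster 2 had 0.306 (0.133 to 0.645) and 0.813 (0.758 to 0.872). No test of these differences was run.

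Unnamed cluster 10 had 2 of 3 measured members lower, against 6.54% of all genes. *Oas1a* had 52 and 23 UMIs there (ratio 0.296, 0.173 to 0.492) and *Oasl2* 28 and 21 (ratio 0.502, 0.271 to 0.916). *Oasl1*, with 1073 and 1323 UMIs, had a ratio of 0.825 (0.760 to 0.895), short of the fold as in cDC2-like cells.

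**Figure D3:**
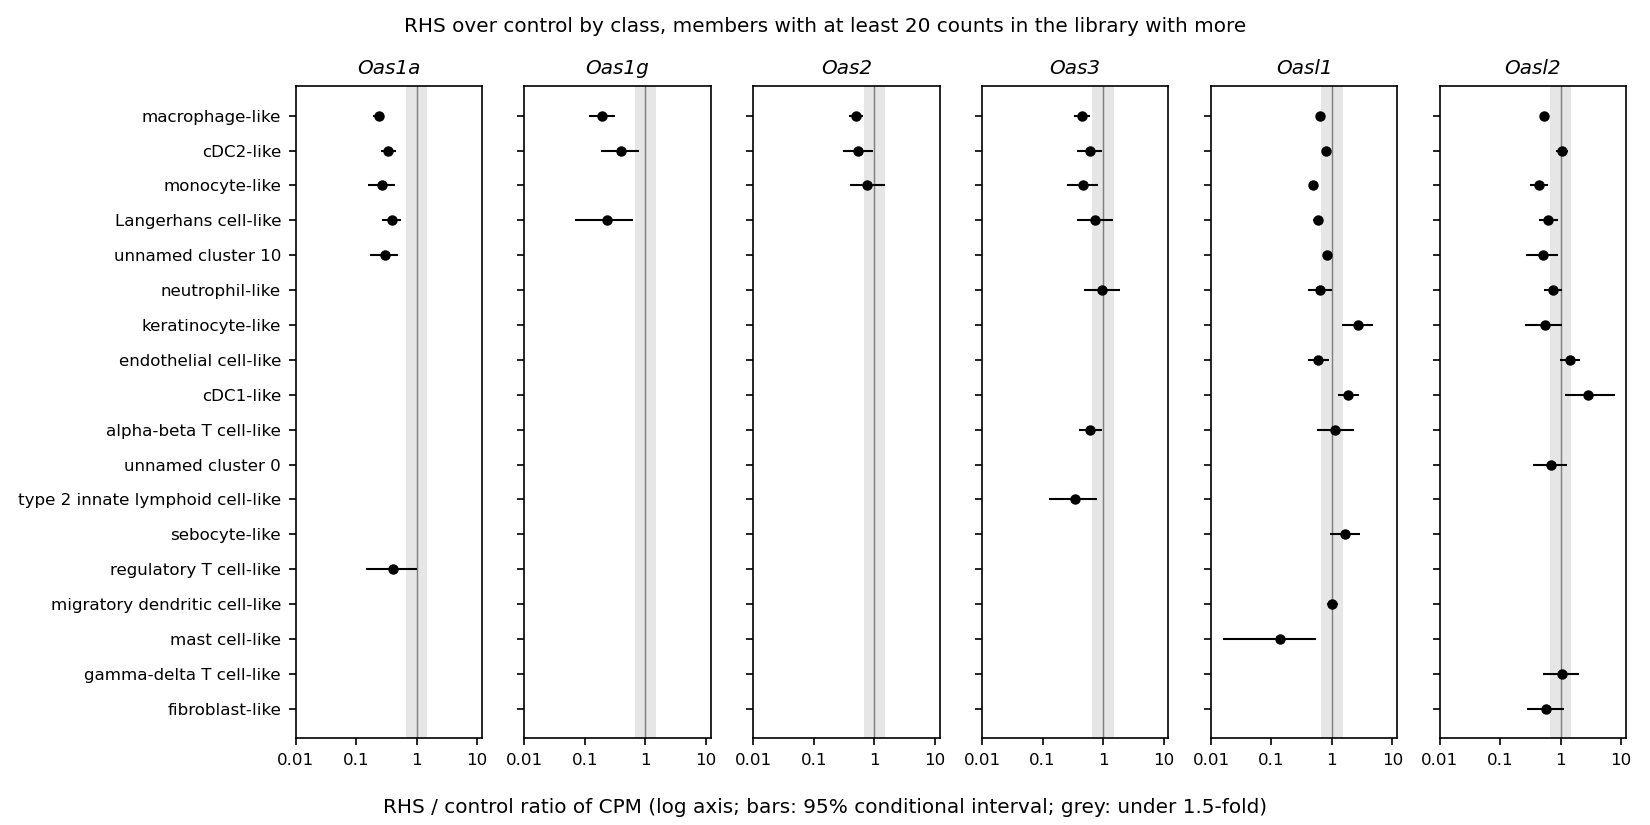
RHS over control ratio of CPM (log axis, 95% conditional intervals) of each Oas gene in every class where it had at least 20 UMIs in the library with more; grey marks differences under 1.5-fold. All measured *Oas1a* and *Oas1g* ratios lay under 1, while *Oasl1* and *Oasl2* lay on both sides.

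Counted over classes, the directions were uneven between members. *Oas1a* was measured in 6 classes and lower in 6, with ratios from 0.237 to 0.410, against 7.22% of all genes lower in those classes. The highest of these, in regulatory T cell-like cells (20 and 7 UMIs; 9.96% of all genes lower), had an interval that reached 1.01. *Oas1g* was lower in 3 of 3, *Oas2* in 2 of 3 and *Oas3* in 5 of 7. None of these 4 was higher in any measured class, and the shares of all genes lower were 6.79%, 6.48% and 7.48% in the classes of *Oas1g*, *Oas2* and *Oas3*.

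Among members with enough UMIs, *Oas3* was the 1 past the fold in innate lymphoid and alpha-beta T cells. In type 2 innate lymphoid cell-like cells, where 9.64% of all genes were lower, it had 30 and 7 UMIs (19.4 and 6.75 CPM; ratio 0.348, 0.129 to 0.808). In alpha-beta T cell-like cells, where 6.65% were lower, it had 41 and 51 UMIs (19.0 and 11.6 CPM; ratio 0.609, 0.396 to 0.942). That class pooled cluster 3, with an *Oas3* ratio of 0.498 (0.289 to 0.866), and cluster 4, with 0.799 (0.380 to 1.70). *Oas1a* fell short of the count minimum in these T cells, with 18 and 6 UMIs, but its ratio was lower still (0.163, 0.0530 to 0.429). The T cells were also more numerous in the RHS library, at 16.1% against 7.17% of cells.

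*Oasl1* was lower in 6 and higher in 3 of 13 classes, and *Oasl2* lower in 6 and higher in 1 of 12. The shares of all genes lower and higher were 9.06% and 6.40% in the classes of *Oasl1*, and 10.1% and 7.17% in those of *Oasl2*. In cDC1-like cells, where 5.85% of all genes were higher, both were higher in RHS. *Oasl1* had 40 and 74 UMIs there (32.5 and 60.3 CPM; ratio 1.85, 1.25 to 2.80), in 19 of 274 and 31 of 285 cells. *Oasl2* had 7 and 20 UMIs (5.69 and 16.3 CPM; ratio 2.86, 1.16 to 8.02). With the libraries clustered separately the *Oasl2* ratio was 0.797, and with cells thinned to 1000 UMIs the *Oasl1* ratio was 1.12.

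In keratinocyte-like cells, where 8.09% of all genes were higher and 17.5% lower, *Oasl1* had 27 and 24 UMIs (3.26 and 8.71 CPM; ratio 2.67, 1.48 to 4.81), while *Oasl2* had 61 and 11 UMIs and the opposite direction (ratio 0.543, 0.257 to 1.04). The class pooled cluster 9 (640 and 408 cells), with 12 and 23 *Oasl1* UMIs and a ratio of 3.14, and cluster 15 (554 and 77 cells), with 15 and 1 UMIs and a ratio of 0.697 (0.0166 to 4.53). The summed level of the 11 macrophage markers in the class was 816 CPM in control and 1476 CPM in RHS cells, with 10 of 11 detected in each; *C1qa* was at 0.482 and 0 CPM. In cDC1-like cells the same sum was 92.6 and 118 CPM, with 9 and 10 of 11 detected and *C1qa* at 0 and 0.815 CPM. In sebocyte-like cells, where 5.95% of all genes were higher, the *Oasl1* ratio was 1.64, but its interval of 0.930 to 2.94 included 1, and its 34 RHS UMIs came from 5 of 215 cells. With at most 10% mitochondrial UMIs that ratio was 0.432, and with doublets kept the keratinocyte ratio of *Oasl1* was 1.21. The macrophage marker sum in sebocyte-like cells was 1709 and 1605 CPM, with 8 of 11 detected in each, while *C1qa* was at 0.888 and 0 CPM. The part of macrophage RNA in these ratios was not tested.

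Several smaller values rested on few cells. The lowest *Oasl1* ratio, 0.137 in mast cell-like cells, came from 26 control UMIs in 2 of 214 cells against 2 RHS UMIs, where 12.4% of all genes were lower. *Oasl1* in endothelial cell-like cells rested on 77 and 43 UMIs, spread over 44 of 436 and 36 of 463 cells, with a ratio of 0.599 (0.402 to 0.881), where 9.01% of all genes were lower; with doublets kept it was 1.01. *Oasl2* had 20 and 17 UMIs in fibroblast-like cells (ratio 0.566, 0.278 to 1.14), where 9.08% of all genes were lower. For *Oasl1* the class with the ratio nearest 1 was migratory dendritic cell-like cells, at 110 and 112 CPM (1.02, 0.825 to 1.25).

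Within macrophage-like cells, a smaller share of the RHS cells carried the transcripts. An *Oas1a* UMI was found in 25.4% of cells in control (exact binomial 95% interval 22.6 to 28.4) but in 7.31% in RHS (6.18 to 8.59). For *Oasl1* the shares were 71.0% (68.0 to 73.9) and 59.4% (57.2 to 61.7). At least 3 *Oasl1* UMIs were found in 57.3% and 41.5%, and at least 10 in 27.9% and 17.4%. Among positive cells the mean was 10.8 *Oasl1* UMIs in control and 7.94 in RHS. Both the share of positive cells and the UMIs per positive cell were thus lower.

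The same order held at equal depth. After each cell was thinned to 1000 UMIs, which left out 23 control and 42 RHS cells, *Oasl1* was found in 51.9% (48.6 to 55.2) and 37.6% (35.4 to 39.9) of macrophage-like cells. For reference, *Oasl1* UMIs appeared in 1.33% and 1.35% of alpha-beta T cell-like cells, at median depths of 2162 and 1944 UMIs. *Oas1a* UMIs appeared in 1.89% and 0.289% of the same T cells.

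Cells also differed in how many members they carried together. UMIs of at least 2 different Oas genes were found in 364 control macrophage-like cells (39.5%) and 368 RHS cells (19.6%). None of the 6 was detected in 19.5% of control and 34.1% of RHS cells. All 6 were found together in 3 control cells and in no RHS cell.

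*Ifnb1*, the gene of interferon beta, was almost all in the same cells. Macrophage-like cells held 600 of 640 control *Ifnb1* UMIs (93.8%) and 322 of 342 RHS ones (94.2%). Its level there was 110 CPM in control against 30.5 CPM in RHS cells (ratio 0.278, 0.242 to 0.319). The cells with an *Ifnb1* UMI numbered 122 of 921 in control (13.2%; 11.1 to 15.6) against 105 of 1873 in RHS (5.61%; 4.61 to 6.75).

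Macrophage-like cells with an *Ifnb1* UMI had higher levels of every Oas member than those without, in both libraries. The 2 intervals overlapped for *Oas3* in control (21 and 67 UMIs) and for *Oas1g* in RHS (5 and 18 UMIs). The largest macrophage cluster held 584 control and 302 RHS *Ifnb1* UMIs. The *Mmp12*-led cluster, with the lowest *Oasl1* level of the macrophage clusters, held 4 and 3. The part of the clusters in these differences was not tested. *Oasl1* stood at 2976 CPM with and 1021 CPM without an *Ifnb1* UMI in control, and at 2713 and 718 CPM in RHS. *Oasl2* stood at 192 and 72.0 CPM in control, and at 204 and 36.9 CPM in RHS. Median depths were 6126 and 5490 UMIs for control cells with and without an *Ifnb1* UMI, and 5843 and 5309 for RHS cells.

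Among cells with an *Ifnb1* UMI, the RHS over control ratio was 0.912 (0.856 to 0.971) for *Oasl1*, 1.06 (0.830 to 1.35) for *Oasl2*, 1.02 (0.599 to 1.71) for *Oas2* and 1.05 (0.528 to 2.07) for *Oas3*. The ratio was 0.409 (0.246 to 0.657) for *Oas1a*, at 93.5 and 38.2 CPM, and 0.292 (0.0860 to 0.795) for *Oas1g*, with 21 and 5 UMIs. Among cells without one, the ratios were 0.703 (0.677 to 0.729) for *Oasl1*, 0.513 (0.442 to 0.597) for *Oasl2*, 0.485 (0.348 to 0.678) for *Oas2* and 0.409 (0.283 to 0.590) for *Oas3*. *Oas1a* was at 0.233 (0.186 to 0.289) and *Oas1g* at 0.213 (0.115 to 0.380) in those cells. The division was made after the values of the whole class were seen, and no test of the difference between the ratios was run.

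**Figure D4:**
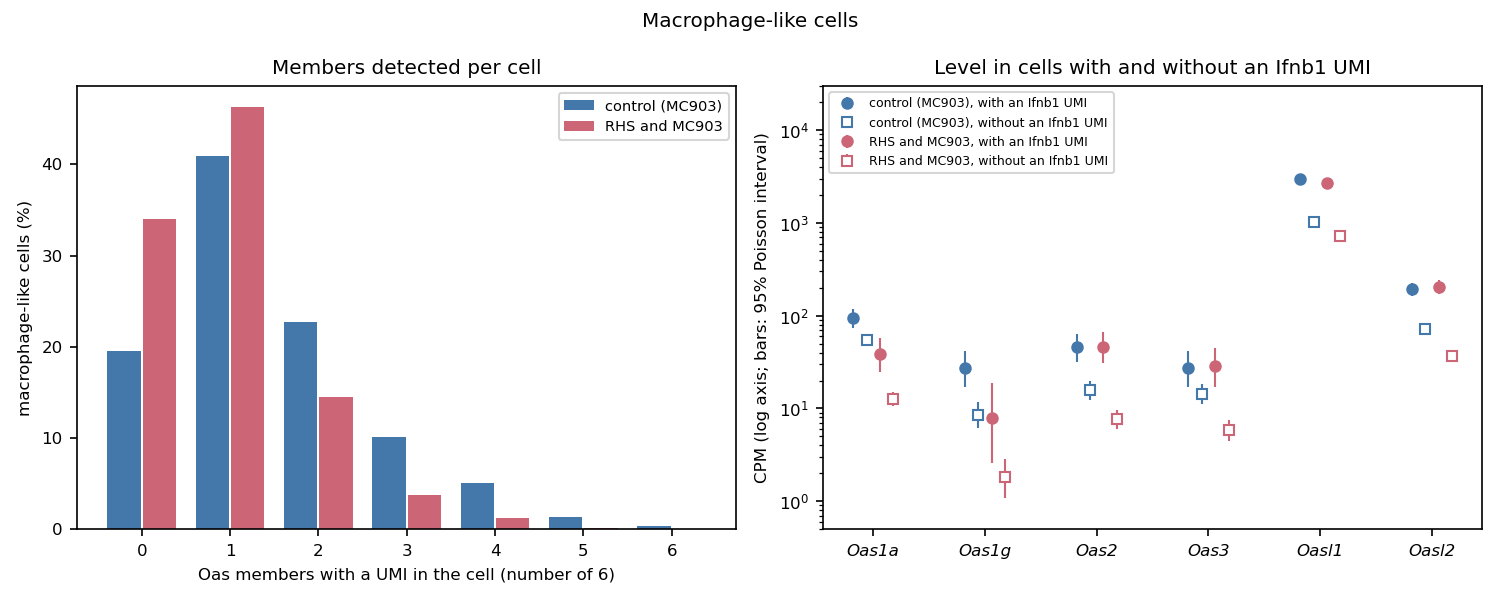
Left, percentage of macrophage-like cells by the number of Oas genes with a UMI in the cell, for the control and RHS libraries. Right, level in CPM (log axis, 95% Poisson intervals) of each member in macrophage-like cells with (filled) and without (open) an *Ifnb1* UMI; *Oasl1* was at 2976 and 2713 CPM in cells with one, and 1021 and 718 CPM in cells without.

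Some other genes of the pathway in macrophage-like cells were lower with the members and others were within the fold. None of the 5 genes of oligoadenylate action and turnover was lower, against 6.10% of all genes. One of them, *Pde12*, which breaks down oligoadenylates, was higher at 1.65 (1.23 to 2.25), against 6.99% of all genes higher in this class. The receptor chains *Ifnar1* and *Ifnar2* had ratios of 0.971 and 1.05, and none of 5 measured interferon receptor genes passed the fold.

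Of 12 signal transducers and factors, 1 was lower, against 6.10% of all genes in this class. This was *Irf7*, the factor that amplifies type I interferon production, with 134 and 66 UMIs (24.5 and 6.25 CPM) and a ratio of 0.255 (0.187 to 0.345). *Stat2* and *Irf9* had ratios of 0.901 and 0.888, each with an interval that included 1. Among feedback regulators, *Usp18*, which removes ISG15 and damps interferon receptor signalling, was lower at 0.386 (0.288 to 0.515), while *Socs1* was at 0.848 and *Socs3* at 1.07.

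Of 12 measured sensors of nucleic acids, 4 were lower and 1 higher, against 6.10% and 6.99% of all genes; the higher one was *Tlr3* with 5 and 20 UMIs. The lowest were *Dhx58*, a cytosolic RNA helicase of the RIG-I family (0.492, 0.378 to 0.640), and *Zbp1* (0.498, 0.395 to 0.627). Of 32 other interferon-induced genes, 23 were lower and none higher, with a median log2 ratio of -0.85 against 0.06 over all genes of the class. *Ifi44* had the lowest ratio, 0.358, and *Phf11d* the next, 0.394. *Ly6e* at 0.939 and *Cxcl9*, a chemokine best known as a target of interferon gamma, at 1.00 were the highest.

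**Figure D5:**
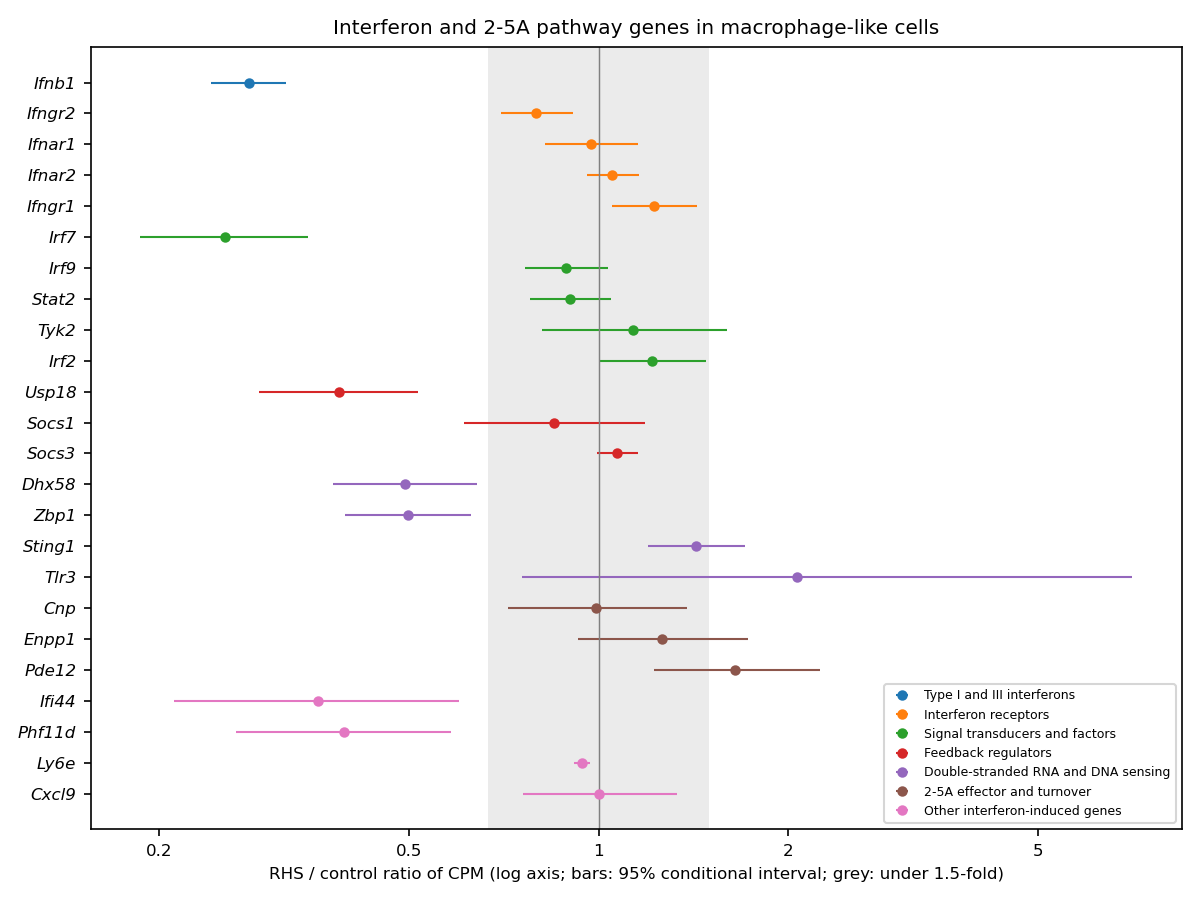
RHS over control ratio of CPM (log axis, 95% conditional intervals) of interferon and oligoadenylate pathway genes in macrophage-like cells, coloured by list; grey marks differences under 1.5-fold. *Ifnb1* (0.278), *Irf7* (0.255) and *Usp18* (0.386) lay outside the grey band, while *Ifnar1*, *Ifnar2*, *Stat2* and *Irf9* lay inside it.

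In monocyte-like cells 7 of 23 measured interferon-induced genes were lower and 1 higher, against 6.54% and 7.17% of all genes, with a median log2 ratio of -0.29 against 0.02. In cDC1-like cells, where *Oasl1* and *Oasl2* were higher, none of 17 was lower and 6 were higher, against 11.2% and 5.85% of all genes, with a median of 0.26 against -0.04. With at least 50 counts only 1 of 8 was higher there, and the median was 0.10. *Ifng*, the gene of interferon gamma, had 369 control and 154 RHS UMIs over all skin cells, a ratio of 0.434 (0.357 to 0.525). It had 145 and 141 UMIs in alpha-beta T cell-like cells, or 67.3 and 32.0 CPM, a ratio of 0.476 (0.375 to 0.604). In type 2 innate lymphoid cell-like cells, the other class with enough *Ifng* UMIs, its log2 ratio was -5.58, with any count of 0 set at 3 counts. In macrophage-like cells *Ifng* had 0 and 1 UMIs.

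The other Oas genes were scarce, although *Oas1c* had more RHS UMIs than the 50 of *Oas1g*. Over all skin cells *Oas1c* had 73 control and 81 RHS UMIs, *Oas1f* 22 and 15, *Oas1e* 7 and 0, *Oas1d* 3 and 2, and *Oas1h* none. In keratinocyte-like cells 1 of these genes had enough UMIs and was higher in RHS (log2 ratio 1.07), against 8.09% of all genes. *Oas1b* was not analysed here.

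The genes whose levels were most like each member were ranked over 48 points, the 24 classes in both libraries, among 11946 genes. These points share 2 libraries and differ in depth, so the correlations of log2(CPM + 10) are descriptions. *Oasl1* was most like *Unc93b1* (Pearson r 0.910), a carrier of endosomal Toll-like receptors, followed by *Cd68*, *Ly86*, *Mrc1* and *Tmem106a*. *Oas2* was most like *Fcgr4* (0.899), *Csf3r*, *Slfn4*, *Gm34084* and *Bst1*. *Oas3* was most like *Slfn1* (0.882), *Wfdc21*, *Csf3r*, *Gpat3* and *Slfn4*.

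*Oasl2* was most like *Slfn4* (0.792), *Tlr4*, *Rtp4*, *Csf3r* and *Tlr13*. *Oas1a* was most like *Amdhd2* (0.814), *Dhx58*, *Slfn2*, *Gde1* and *St6galnac4*, and *Oas1g* most like *P2ry6* (0.756), *Trem2*, *Ninj1*, *Lrrc25* and *Rnf212b*. The sum of the 6 was most like *Unc93b1* (0.898), *Gm34084*, *Cd68*, *Wfdc17* and *Cd14*. Among the members themselves, *Oas1a* and *Oas1g* were most alike (0.837) and *Oas3* and *Oasl1* least (0.384). By Spearman's rank correlation *Unc93b1* was still first for *Oasl1* (0.837), whereas *Slfn4* had 0.388 with *Oasl2*. *Csf3r* had 0.261 with *Oasl2* (rank 1502) and 0.394 with *Oas3* (rank 1078). For *Oas3*, *Slfn1* was at rank 5, but *Wfdc21*, *Gpat3* and *Slfn4* were at ranks 133, 223 and 281.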

How the data were processed

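The skin matrices deposited by the authors are unnormalized UMI counts, judged from their whole numbers; every deposited skin barcode had at least 500 UMIs. Per the submitters' processing notes, Cell Ranger, Seurat 5.1.0 and R 3.6.0 were used with the GRCm39 build, without naming which did what. How the skin reads were counted, and whether by strand, is not stated by the sources used here. Free RNA and undetected doublets could move low counts between classes.

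Barcodes under 200 genes or over 20% mitochondrial UMIs were dropped, and doublets were removed with Scrublet in scanpy 1.11.5 at an expected 6% (146 and 115 barcodes; 1.15% and 0.880%). Counts scaled to 10000 per cell and log-transformed gave 2000 variable genes without the members, 30 principal components, 15 neighbours and Leiden clusters at resolution 1. Both libraries entered 1 clustering with no integration. Clusters were named "-like" from marker lists when at least 3 markers were present (in at least 5% of cells and over 2 times the other clusters) and the 10 leading genes did not go against the name; this naming rule was set after seeing the data.

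Counts were summed per class and library. CPM had exact Poisson, ratios exact conditional binomial and shares exact Clopper-Pearson 95% intervals; each group held 1 library, so there are no tests and no p-values. The interval and fold code was checked on simulated counts. The genes named were all members, the other Oas genes, Irf7, Irf9, Stat2, Ifnar1, Ifnar2, Ifnb1 and Ifng, the 2 lowest and 2 highest ratios per pathway list, and the 5 genes most like each member over genes with at least 200 UMIs; cluster-leading genes, Ly6c2 and C1qa were added after their values were seen. Some genes of this rule are not reported here. Members and lists were chosen with earlier results of these data known. Promoters came from RefSeq (5 of 6 members matched) and transcripts from GENCODE. Alternatives changed the cell filters, scaling, depth, clustering, free RNA, count minimum and fold. Other tools were Python 3.11.15, numpy 2.4.6, scipy 1.17.1, pandas 2.3.3, scikit-learn 1.9.0, leidenalg 0.10.2, Biopython 1.88 and matplotlib 3.10.9.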

Additional observations from a re-analysis of the deposited data

Results flagged for a closer look

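*Oasl1* differed in direction between classes: its ratio was 1.85 in cDC1-like and 2.67 in keratinocyte-like cells with intervals over 1, against 8 classes with intervals under 1. *Oasl2* had a ratio of 2.86 in cDC1-like cells, against 4 classes with intervals under 1. With 1 library in each group, these differences between classes were not tested.

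The ganglia nuclei, which enter no comparison, also carried the members, above the limit of 3 counts (0.287 CPM) that a count of 0 allows. Among 4509 nuclei and 10436534 UMIs there were 46 UMIs of *Oas1a*, 18 of *Oas1g*, 114 of *Oas2*, 18 of *Oas3*, 42 of *Oasl1* and 530 of *Oasl2*. *Oasl2* stood at 50.8 CPM and was found in 7.47% of nuclei. The title of this library says skin, while its tissue label and description say ganglia.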

How the results depend on the processing

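No paired analysis was possible because each group held 1 library, and for the same reason no replicate could be left out. Within macrophage-like cells the 6 ratios stayed under 1 in 12 alternatives each, from 0.227 to 0.254 for *Oas1a*, 0.153 to 0.236 for *Oas1g*, 0.389 to 0.554 for *Oas2*, 0.428 to 0.572 for *Oas3*, 0.611 to 0.697 for *Oasl1* and 0.505 to 0.589 for *Oasl2*. *Oasl1* left its interval with doublets kept (0.671), median-ratio scaling (0.618), thinning (0.620), members allowed in clustering (0.697) and libraries clustered separately (0.611). Over all cells *Oasl1* was 1.22 with median-ratio and 1.21 with TMM scaling, 1.07 thinned, and 1.01 without macrophage-like cells, an alternative chosen after seeing the data. *Oas2* over all cells was 0.709 thinned. At equal class shares the ratios were 0.301 (*Oas1a*), 0.596 (*Oas2*), 0.541 (*Oas3*), 0.694 (*Oasl1*) and 0.672 (*Oasl2*).

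Ratios changed direction for *Oas3* in cDC2-like cells (1.14) and *Oasl1* in endothelial cell-like cells (1.01) with doublets kept, *Oasl1* in Langerhans cell-like cells with at least 500 genes per cell (1.09), *Oasl1* in sebocyte-like cells with at most 10% mitochondrial UMIs (0.432) and *Oasl2* in cDC1-like cells with separate clustering (0.797). Those alternatives also changed which cells a class held; the cause was not tested. Of 281 alternative values called in other classes, 257 stayed inside the main interval.

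Counts of classes lower moved with fewer UMIs. Thinned to 1000 UMIs they were 2 (*Oas1a*), 0 (*Oas1g*), 1 (*Oas2*), 1 (*Oas3*) and 3 (*Oasl2*), with 0 higher for *Oasl1* and *Oasl2*. With at least 50 counts they were 1 (*Oas1g*), 1 (*Oas2*) and 3 (*Oas3*), with 1 higher for *Oasl1* and 0 for *Oasl2*. With no minimum above 1 count, classes lower were 12 (*Oas1a*), 6 (*Oas1g*), 8 (*Oas2*) and 10 (*Oas3*), and classes higher 6 (*Oas1a*), 5 (*Oas1g*), 2 (*Oas2*), 3 (*Oas3*), 7 (*Oasl1*) and 4 (*Oasl2*). These last counts do not give directions, because a count of 0 was set at 3 counts. A class with 1 control and 0 RHS UMIs, such as basophil-like cells for *Oas1a*, was thereby counted as higher in RHS. At a 2-fold threshold, lower were 1 (*Oas2*), 3 (*Oas3*), 2 (*Oasl1*) and 1 (*Oasl2*), with 1 higher for *Oasl1*. At resolution 2.0 lower were 1 (*Oas1g*) and 1 (*Oas2*); *Oas3* was lower in 3 at resolution 0.5 and in 3 with separate clustering. *Oasl1* was higher in 1 class with at most 10% mitochondrial UMIs and in 1 after free RNA was subtracted. *Oasl2* was higher in 0 with at least 500 genes, separate clustering or free RNA subtracted, and in 2 with at most 10% mitochondrial UMIs or members allowed in clustering.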

Other observations

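The list of other interferon-induced genes was also read in the remaining classes. Mast cell-like cells had the lowest median log2 ratio, -0.90 against -0.05 over all genes. There 6 of 9 measured genes were lower and none higher, against 12.4% and 4.77% of all genes. With at least 50 counts 2 of 3 were lower. In unnamed cluster 24, led by *Hhip*, *Scube3* and *Sostdc1*, 7 of 11 were lower and none higher, with a median of -0.72 against -0.12, in 279 control and 54 RHS cells; 25.0% of all genes were lower there. With at least 50 counts 1 of 4 was lower there and the median was -0.10, near that of all genes. In regulatory T cell-like cells 5 of 19 were lower and 1 higher, against 9.96% and 3.56% of all genes, with a median of -0.40 against -0.04. With at least 50 counts 1 of 13 was lower there, 1 higher and the median -0.11. In neutrophil-like cells 4 of 13 were lower and 2 higher, with a median of -0.36 against -0.03, where 16.6% of all genes were lower and 15.5% higher. Melanocyte-like cells had the highest median, 1.59 against -0.18, with 5 of 7 higher and 1 lower, in 163 control and 55 RHS cells, where 11.1% of all genes were higher and 29.7% lower. With at least 50 counts they had 2 measured genes, 1 higher and 1 lower. Over all skin cells none of 33 was past the fold in either direction, against 16.1% of all genes lower and 3.46% higher. The median there was -0.06 against -0.11.

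In cluster 24, *Oasl1* had 5 control UMIs in 4 cells and 13 RHS UMIs in 3 cells, of which 11 were in 1 cell. *Oas1a*, *Oas1g*, *Oas2* and *Oas3* had no UMI in that cluster in either library.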
